A study of Cervus nippon with 12 samples.

Results

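bta-miR-143, written miR-143 from here on, is 1 of the 545 names listed for each library, of which 475 are cattle names (bta-) and 70 begin with novel_. It was chosen by its own values in these libraries. These were its share of the reads, its rank and its ratios to other abundant miRNAs of mesenchymal cells. Its values are therefore given as a description, and no test of it is used. The listing holds 0 names for a further arm of miR-143, and 0 other names had reads within 1% of those of miR-143 in every library.

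Small RNA was sequenced from cells of the antler of the sika deer (Cervus nippon), labelled WT in genotype in every group. CP_0, CP_7 and CP_14 are reserve mesenchyme cells (RMCs), labelled as mesenchymal stem cells, after 0, 7 and 14 days in chondrogenic medium, and CC are chondrocytes, for which the labels name neither a treatment nor a time. The paper describes both cell types as cultured, from growing antler tips collected at different times, and the induction of RMCs as pellets in tubes. Differences of culture form or antler stage cannot be told apart here from those of induction or cell type. The deer of the study were adult males 3 years old, and each of the 4 groups has 3 libraries. The study used 6 deer and describes its replicates as biological. The labels do not tie a library to an animal, so the p-values below measure the spread between these samples, whatever its source. The comparison along days 0, 7 and 14 follows miR-143 through chondrogenic induction, and the comparison of CC with CP_14 sets the induced cells beside chondrocytes of the antler.

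In mammals miR-143 is processed from a transcript that it shares with its genomic neighbour miR-145. The transcript is known for its high level in smooth muscle cells and fibroblasts, where serum response factor with myocardin, and signalling by TGF-beta and BMP, drive its transcription. Targets of miR-143 described in such cells bear on the actin cytoskeleton and on the choice between contractile and proliferative states.

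The deposited values are reads on a name per 1000000 reads on all listed names (RPM), and the reads behind them were recovered. The libraries held 2973442, 4097304 and 3636580 reads in CP_0, 769655, 1032029 and 539455 for CP_7, 2791559, 3024668 and 3864900 for CP_14 and 10256572, 9714090 and 9970138 for CC. CP_7 was thus the group with the fewest reads in each of its libraries, and CC the one with the most. CP_0 replicate 3 stood apart from its group in the sum of 7 miRNAs known as markers of blood cells, with 15359 reads on them against 51 and 59 in replicates 1 and 2. Nearly all of these reads were on miR-486 (8312) and miR-451 (6933). MiR-144 and miR-142-3p had 0 reads in that library, against 1 to 4 in replicates 1 and 2. CP_7 replicate 3 stood apart in the endothelial miR-126 (3p and 5p), with 3083 RPM against 188.4 and 322.7 in replicates 1 and 2. CP_7 replicate 1 stood apart in neuronal miRNAs, with 1869.7 RPM against 107.6 and 140.9 in replicates 2 and 3. CP_14 replicate 3 differed from its group over all miRNAs, with a chi-squared per degree of freedom of 252.1 and 212.6 against replicates 1 and 2, and 4.92 between these. For CC replicate 3 this was 215.7 and 80.51, with 42.61 between replicates 1 and 2 of CC. The main values of miR-143 are therefore given for every library, and the means, ratios and differences of CP_0, CP_7 and CP_14 also without the library concerned. Without CC replicate 3 the difference of miR-143 between CC and CP_14 was -1.89 on the log2 scale.

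MiR-143 had 391424, 574283 and 575825 reads for CP_0, 64770, 87372 and 60465 in those of CP_7, 768552, 807804 and 783065 in those of CP_14, and 366398, 420615 and 507100 in those of CC. Its share of all reads was 13.2%, 14.0% and 15.8% in CP_0 and 8.42%, 8.47% and 11.2% in CP_7. The share was 27.5%, 26.7% and 20.3% for CP_14 and 3.57%, 4.33% and 5.09% for CC. Every CP_14 library was above every library of the other groups, every CC library was below them, and none of the groups overlapped in the share of miR-143. The mean share was 14.3% ± 1.36 (SD, n = 3) in CP_0, 9.36% ± 1.60 for CP_7, 24.8% ± 3.98 for CP_14 and 4.33% ± 0.757 for CC. Without replicate 3 the mean share was 13.6% in CP_0, 8.44% in CP_7 and 27.1% in CP_14, and without replicate 1 it was 9.84% in CP_7. The 95% Wilson intervals of these shares reached at most 0.0842 percentage points to either side (CP_7 replicate 3) and at least 0.0114 (CC replicate 1), so counting error was small beside the spread between libraries. The intervals cover counting error only, because reads copied by PCR and not told apart by molecular identifiers are not separate molecules.

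MiR-21-5p, an abundant miRNA of mesenchymal and many other cells, took more reads than miR-143 in all 12 libraries. In CP_0, CP_14 and CC miR-143 was the name with rank 2 in every library, below miR-21-5p alone. In every CP_7 library it had rank 4, below miR-21-5p, let-7i and miR-148a. The ranks were the same among the cattle names only. The margin over the name next below differed between groups. In CP_0 the next name was let-7i, a member of the let-7 family that is abundant in differentiated cells, and miR-143 had 2.44, 2.67 and 3.25 times its reads in the 3 libraries. In CP_14 the name next below was also let-7i, at 5.57, 5.34 and 3.81 reads of miR-143 per read, and in CP_7 it was miR-27b, at 1.83, 1.83 and 1.72. In CC let-7i stood close behind, and CC replicate 1 had 1.02 reads of miR-143 per read of let-7i (95% exact binomial interval of this ratio 1.01 to 1.02), against 1.26 and 1.41 in replicates 2 and 3. Rank 2 in CC thus rests on a narrow margin in that library.

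**Figure D1:**
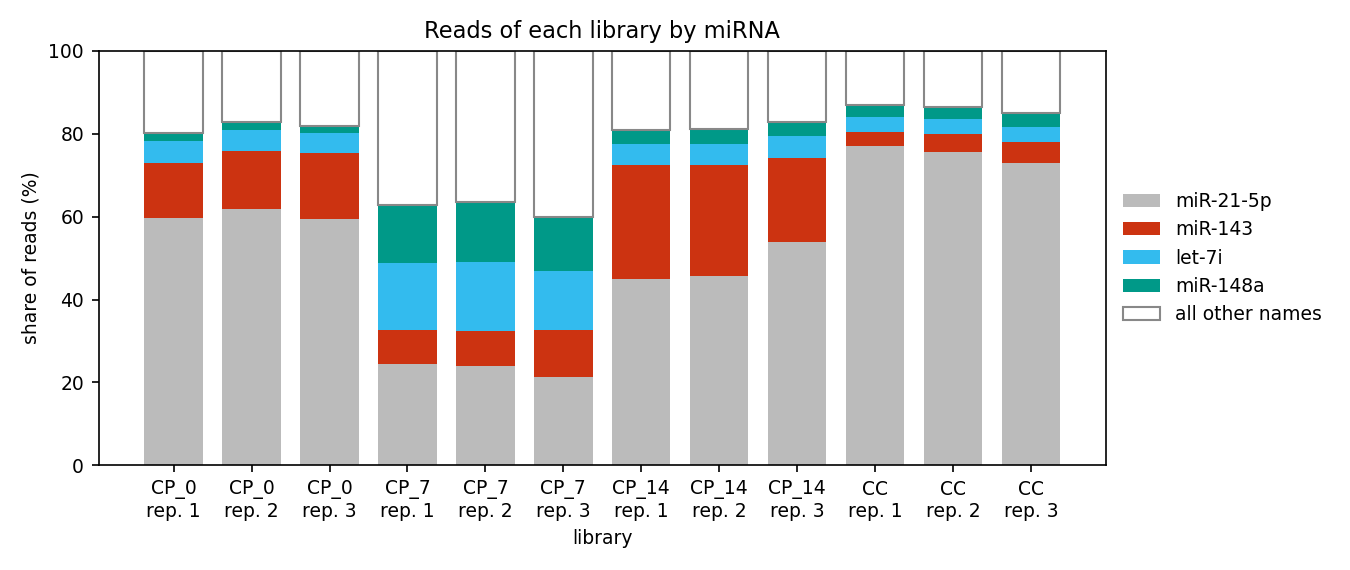
Share of the reads of each library (y axis, %) that fell on miR-21-5p, miR-143, let-7i, miR-148a and all other listed names, stacked to 100, for the 12 libraries (x axis). MiR-143 is the second layer, widest in CP_14 (20.3% to 27.5%) and narrowest in CC (3.57% to 5.09%).

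The share of miR-143 depends on how much of the library miR-21-5p takes, which was 59.8%, 61.7% and 59.5% in CP_0, 24.3%, 23.9% and 21.4% for CP_7, 45.0%, 45.7% and 53.9% for CP_14 and 76.9%, 75.7% and 72.9% for CC. CP_14 replicate 3, the CP_14 library with the lowest share of miR-143, had the highest share of miR-21-5p of that group. MiR-143 and miR-21-5p together held 72.4% to 75.7% of the reads in each library of CP_0 and CP_14, 32.4% to 32.8% in those of CP_7 and 78.0% to 80.5% in those of CC. In reads left after miR-21-5p was taken out, miR-143 made up 32.7%, 36.6% and 39.1% in CP_0, 11.1%, 11.1% and 14.3% for CP_7, 50.05%, 49.2% and 44.0% for CP_14 and 15.5%, 17.8% and 18.8% for CC. On that base the order of CP_7 and CC was turned round, and every CP_7 library was below every CC library.

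A level that allows for such differences in composition was computed with TMM factors, which bring the bulk of the miRNAs to the same level in all libraries. The TMM-normalized RPM of miR-143 was 141808, 165561 and 184895 in CP_0, 42537, 50255 and 53586 for CP_7, 269253, 260869.6 and 216757 for CP_14 and 63883, 72305 and 78192 for CC. The means were 164088 ± 21582 (SD, n = 3) in CP_0, 48793 ± 5668 for CP_7, 248959.7 ± 28202 for CP_14 and 71460.2 ± 7192 for CC, and, without replicate 3, 153684 in CP_0, 46396 in CP_7 and 265061 in CP_14 (51920.5 in CP_7 without replicate 1). From low to high the order of the levels was CP_7, CC, CP_0 and CP_14, and no neighbours in this order overlapped in their libraries. By the means, CP_14 was highest and CP_0 next in each of 8 scalings, but with no normalization the libraries of CP_0 and CC overlapped (391424 to 575825 reads against 366398 to 507100). The lower end of the order was not kept. CC was above CP_7 in 6 of the 8 scalings and below it in 2, with library size only (35723 to 50862 RPM in CC against 84155 to 112085 in CP_7) and with scaling to 6 reference miRNAs, where both groups overlapped (45603 to 61138 in CC against 57852 to 79899 in CP_7). The 6 include no normalization, which leaves in the values that CC had the most reads and CP_7 the fewest. Which of the 2 groups had the lowest miR-143 is therefore a matter of the scaling. In bulk libraries such as these, fewer cells with a miRNA and less of it per cell cannot be told apart.

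**Figure D2:**
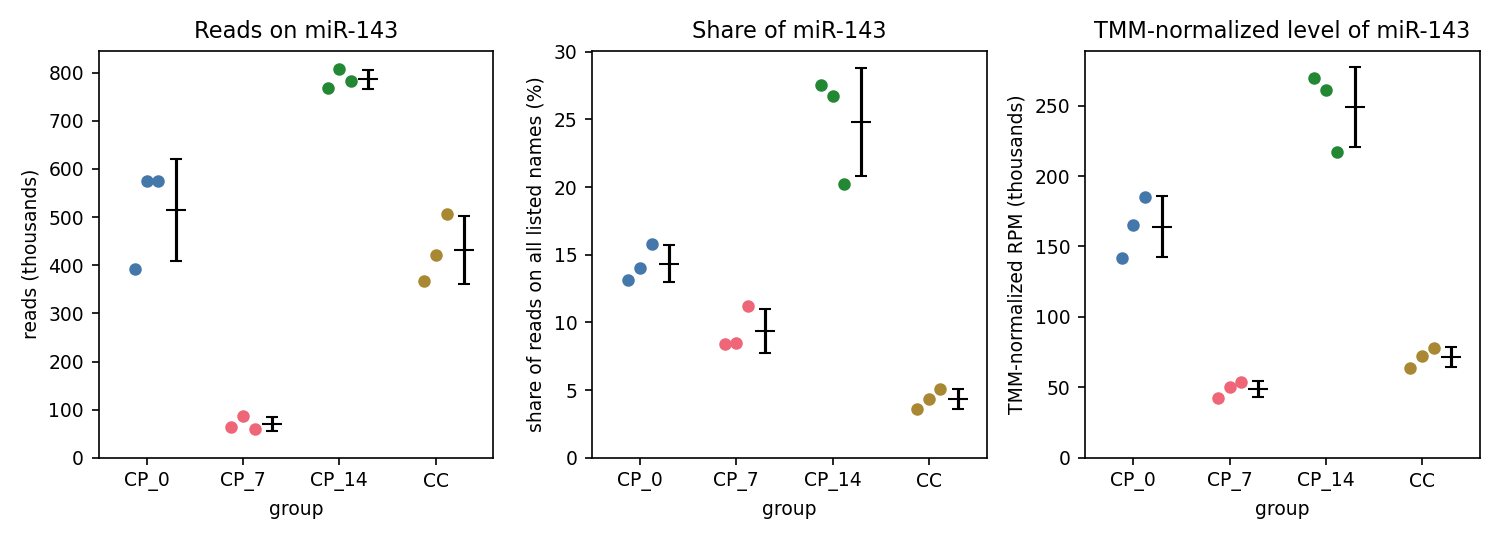
MiR-143 in the 4 groups (x axis) as recovered reads, as a share of the reads on all listed names (%), and as TMM-normalized RPM. Each point is a library, with replicates 1 to 3 from left to right, and the black bars are the mean and SD of 3 libraries. CP_14 lies highest in all panels, while CC is lowest in the share and CP_7 is lowest in the reads and in the TMM-normalized level.

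From day 0 to day 7 the level of miR-143 differed by -1.70 on the log2(TMM-normalized RPM + 1) scale, a 3.24-fold lower level, with a pooled SD of 0.17 between libraries of a group. Of the 246 miRNAs tested, 67.9% did not overlap between CP_7 and CP_0, 35.8% were higher and 28% were lower at an adjusted p under 0.05 by limma. From day 7 to day 14 the difference of miR-143 was 2.27 (4.83-fold, pooled SD 0.15), where 62.2% of the 246 miRNAs tested did not overlap, 24.4% were higher and 28.5% lower. From day 0 to day 14 the difference of miR-143 was 0.62 (1.54-fold, pooled SD 0.17), where 56.4% of 250 did not overlap, 24.8% were higher and 21.2% lower. Between CC and CP_14 it was -1.81, a 3.50-fold lower level in CC (pooled SD 0.17), where 78.6% of 276 did not overlap, 37.7% were higher and 37% lower. In each of these comparisons the libraries of both groups did not overlap in miR-143, and since miR-143 was chosen by these contrasts nothing is read from that. MiR-143 was kept in the fits, so the numbers tested and the shares of all include it. The comparisons share the libraries of CP_0, CP_7 and CP_14, so their values are not independent of each other. Without CP_0 replicate 3 the differences of miR-143 that involve CP_0 were -1.63 at day 7 and 0.70 at day 14. Without CP_7 replicate 3 those that involve CP_7 were -1.86 and 2.42, and without CP_7 replicate 1 they were -1.84 and 2.26. Without CP_14 replicate 3 those that involve CP_14 were 2.35 against CP_7, 0.68 against CP_0 and, for CC against CP_14, -1.92.

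The change of miR-143 can also be set beside the changes of all other miRNAs tested. From day 0 to day 7, 5.31% of the 245 other miRNAs had a lower change than miR-143, and from day 7 to day 14, 96.7% of 245 had a lower one. From day 0 to day 14 the percentage was 73.9% of 249, and between CC and CP_14 it was 5.09% of 275. MiR-143 thus lay near the lower end, the upper end, above the middle of the range and again near the lower end of these changes, in that order. From day 0 to day 7 the percentage was 8.15% of 270 without CP_7 replicate 1. Between CC and CP_14 it was 8.36% with no normalization and 2.91% with a pseudocount of 5 RPM. Relative to the median change of all miRNAs tested, miR-143 changed by -1.77, 2.28, 0.61 and -1.89 in the 4 comparisons.

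A scaling moves all miRNAs of a library together, so a change given relative to the median of all is nearly the same under each by construction, and only the change itself can differ. With library size only the median of all miRNAs tested moved to 1.12 between CP_7 and CP_0, -0.84 between CP_14 and CP_7, 0.16 between CP_14 and CP_0 and -0.54 between CC and CP_14. With no normalization it was -1.04, 1.19, 0.02 and 1.01 in the same order, under upper-quartile scaling -0.24, 0.13, -0.24 and 0.25, and under library size without miR-21-5p 0.19, -0.29, -0.21 and 0.43. Over 6 scalings other than TMM the change of miR-143 relative to that median was -1.81 to -1.74, 2.24 to 2.30, 0.61 to 0.62 and -1.98 to -1.88 in the 4 comparisons. The sign of the difference of miR-143 itself, which a scaling can turn, was that of TMM each time in these 4. The split of the calls among all miRNAs moved far more. Higher miRNAs were 56.1%, 46.2%, 53.9% and 50.5% of the calls with TMM, against 88.4%, 15.9%, 69.7% and 19.7% with library size only. No normalization gave 15.2% for CP_7 against CP_0, 92.5% for CP_14 against CP_7 and 82.3% for CC against CP_14. Upper-quartile factors gave 42.8% at day 7 and 35.5% at day 14, each against day 0. Library size without miR-21-5p gave 32.1% for CP_14 against CP_7, 38.3% for CP_14 against CP_0 and 66.3% for CC against CP_14.

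A ratio of reads within a library needs no scaling. The first miRNA set beside miR-143 was miR-145, its genomic neighbour, which had 1516, 2512 and 1929 reads in CP_0, 1611, 2187 and 792 for CP_7, 1539, 1723 and 2705 for CP_14 and 4800, 4015 and 4032 for CC. The reads of miR-143 per read of miR-145 were 258, 229 and 299 in CP_0, 40.2, 39.95 and 76.3 for CP_7, 499, 469 and 289 for CP_14 and 76.3, 105 and 126 for CC. MiR-143 thus had far more reads than its neighbour in every library, while miR-145 stood at ranks 37 to 51. The reads were not calibrated to molecules, so these are ratios of reads only. On the log2 scale the ratio was 8.02 ± 0.19 (SD, n = 3) in CP_0, 5.63 ± 0.54 for CP_7, 8.67 ± 0.43 for CP_14 and 6.65 ± 0.36 for CC. The order from low to high was CP_7, CC, CP_0 and CP_14, where CP_14 and CP_0 overlapped, as CP_14 replicate 3 was below CP_0 replicate 3, and CC replicate 1 lay just below CP_7 replicate 3 (76.333 against 76.345). After 1 read is added to each count, as was done for the log2 ratios and the counts of overlaps below, CC and CP_7 no longer overlap. From CP_0 to CP_7 the ratio of miR-143 to miR-145 fell by 2.39 on the log2 scale and from CP_7 to CP_14 it went up by 3.04, so the neighbours did not keep a fixed ratio.

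The level of miR-145, named as the neighbour in the genome, was tested. MiR-145 is also a comparator, and ratios to such miRNAs were part of the choice of miR-143, so the test is not independent of that choice. From CP_0 to CP_7 miR-145 went up by 0.69 (limma, standard error 0.21, adjusted p = 0.023), in the direction opposite to that of miR-143. Its change from CP_7 to CP_14 was -0.76 (limma, standard error 0.22, adjusted p = 0.023), again opposite. The libraries of miR-145 overlapped in both. The first call was lost without CP_0 replicate 1 (adjusted p = 0.082), CP_0 replicate 3 (0.065), CP_7 replicate 1 (0.32) or CP_7 replicate 2 (0.38), and the second without replicate 1 or 2 of CP_7 (0.098 and 0.12) or replicate 1 or 2 of CP_14 (0.089 and 0.086). Over the fits with a library left out the first change ran from 0.32 to 0.84 and the second from -0.93 to -0.50. Between CP_14 and CP_0 miR-145 differed by -0.026 (adjusted p = 0.91), and between CC and CP_14 by 0.22 (adjusted p = 0.16), which passed the threshold without CP_14 replicate 3 (0.017). With library size only the difference between CC and CP_14 was called in the opposite direction (-0.50, adjusted p = 0.00097 by limma). The first call was also lost with RLE size factors (0.052), upper-quartile factors (0.19) and TMM without miR-21-5p (0.16), and the second with upper-quartile factors (0.051) and with the replicate number as a block (0.086, against 0.013 for the first). With library size only both changes were larger and called, at 1.76 (adjusted p = 4.9e-05 by limma) and -1.63 (adjusted p = 0.00017). With no normalization the first change of miR-145 was -0.47 and the second 0.45, neither of them called. No normalization leaves the low depth of CP_7 in the values, and the median of all miRNAs tested was then -1.04 and 1.19. That shift ran against the changes of miR-145 and with those of miR-143, so the turned sign shows no difference between miR-145 and miR-143.

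Among the other miRNAs set beside miR-143, miR-21-5p was the only one above it in every library. The reads of miR-143 per read of miR-21-5p were 0.220, 0.227 and 0.266 in CP_0, 0.346, 0.354 and 0.525 for CP_7, 0.612, 0.584 and 0.376 for CP_14 and 0.0464, 0.0572 and 0.0697 for CC. CC lay far below the RMC groups, CP_0 came next, and CP_7 and CP_14 overlapped. With miR-21-5p as the base, miR-143 was thus higher at day 7 than at day 0, the opposite of what most other bases gave. MiR-100, of the miR-99 and miR-100 family, gave ratios of 5.29 ± 0.731 (SD, n = 3) in CP_0, 5.88 ± 0.301 for CP_7, 14.3 ± 1.71 for CP_14 and 1.90 ± 0.195 for CC, with overlap of CP_0 and CP_7.

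MiR-199a-3p and miR-214 come from a shared transcript of mesenchymal cells. MiR-143 had 29.2 ± 5.51 (SD, n = 3) reads per read of miR-199a-3p in CP_0, 4.12 ± 0.261 for CP_7, 23.7 ± 1.68 for CP_14 and 15.02 ± 1.05 for CC. Per read of miR-214 it had 847 ± 161, 403 ± 18.2, 811 ± 66.8 and 215 ± 21.4 in the same order. With both of these as the base CP_14 and CP_0 overlapped, so miR-143 was not higher in CP_14 beyond the spread. Per read of let-7i miR-143 had 2.78 ± 0.419 reads in CP_0, 0.603 ± 0.155 for CP_7, 4.91 ± 0.955 for CP_14 and 1.23 ± 0.197 for CC, with 0 overlaps between the groups. For miR-148a, named because it was above miR-143 in CP_7, the values were 8.18 ± 1.24, 0.685 ± 0.155, 7.02 ± 1.03 and 1.38 ± 0.158, and CP_0 and CP_14 overlapped.

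MiR-140, a miRNA known for its role in cartilage, gave ratios of miR-143 of 15.3 ± 2.60 (SD, n = 3) in CP_0, 9.55 ± 0.743 for CP_7, 25.4 ± 3.30 for CP_14 and 4.22 ± 0.544 for CC. For miR-24-3p they were 23.0 ± 3.51, 13.5 ± 0.570, 34.0 ± 1.42 and 11.2 ± 0.744, and for miR-27b, from a cluster with a copy of miR-24, they were 3.39 ± 0.538, 1.798 ± 0.0636, 9.11 ± 0.330 and 1.90 ± 0.0710. With miR-140 and miR-24-3p as the base the order was CC, CP_7, CP_0 and CP_14 with no overlap, while with miR-27b as the base CC and CP_7 overlapped. For miR-22-3p the ratios of miR-143 were 42.3 ± 7.13, 34.8 ± 2.33, 66.0 ± 7.50 and 21.4 ± 2.17, for miR-26a 35.4 ± 5.13, 9.26 ± 1.63, 56.7 ± 8.96 and 9.88 ± 1.13, and for miR-125b 68.5 ± 10.9, 30.2 ± 2.66, 150.6 ± 19.2 and 23.1 ± 2.78. CP_0 and CP_7 overlapped with miR-22-3p as the base, and CP_7 and CC with miR-26a.

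**Figure D3:**
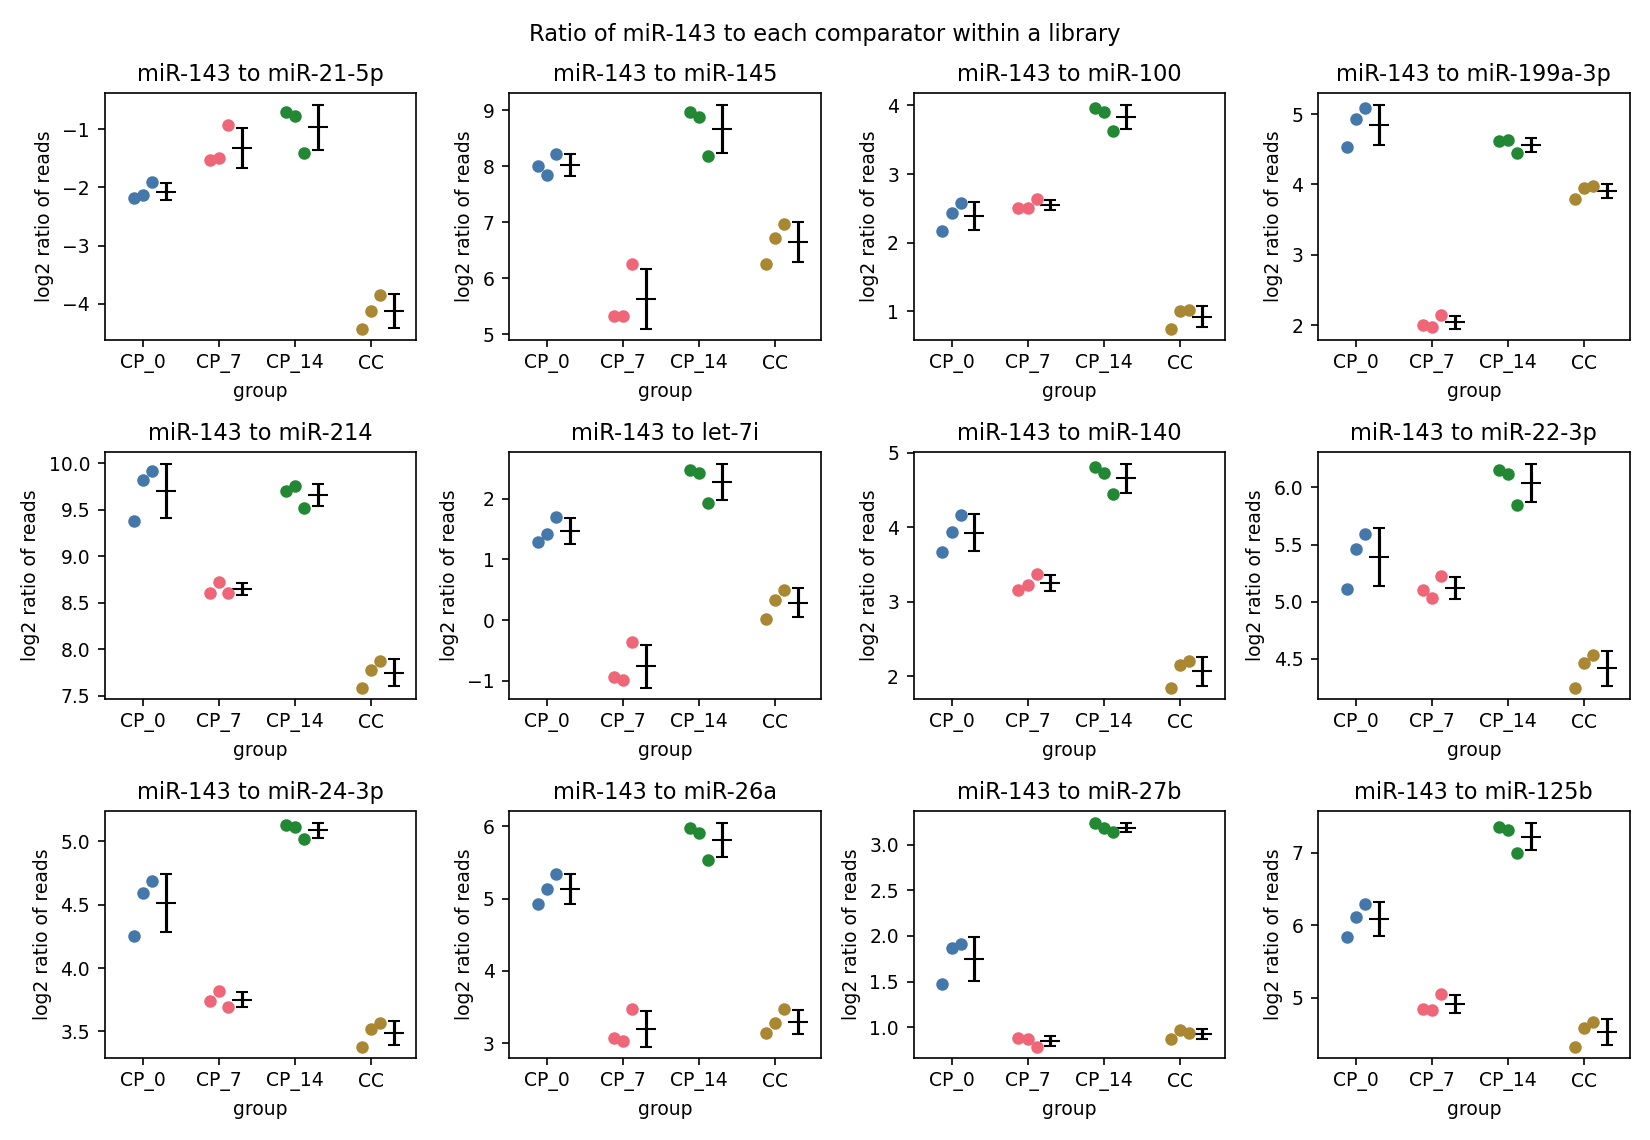
Log2 ratio of the reads of miR-143 to those of each of 12 comparator miRNAs (y axis of each panel) in the 4 groups (x axis). Each point is a library, with replicates 1 to 3 from left to right, and the black bars are the mean and SD of 3 libraries. CP_14 has the highest mean in 10 of the 12 panels, and the lowest mean is in CC in 7 and in CP_7 in 5.

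Over these 12 comparators CP_14 had the highest mean ratio of miR-143 for 10 and CP_0 for the other 2 (miR-199a-3p and miR-214). The lowest mean was in CC for 7 and in CP_7 for 5. From CP_0 to CP_7 the ratio was lower without overlap for 9 of the 12 and higher without overlap for 1 (miR-21-5p). From CP_7 to CP_14 it was higher without overlap for 11 and overlapped for miR-21-5p, and from CP_0 to CP_14 it was higher without overlap for 9. Between CC and CP_14 the ratio was lower without overlap for all 12 comparators. Between CC and CP_7 it was higher without overlap for 3 and lower for 7, and of the 3 miR-145 is there only by the added read. This last comparison has no common answer, and the base decides it, as did the scaling. All 12 ratios share the reads of miR-143, so the counts are not independent of each other or of the choice of miR-143.

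Without CP_0 replicate 3 the mean ratio of miR-143 in CP_0 was 0.224 to miR-21-5p, 243 to miR-145, 4.95 to miR-100, 26.8 to miR-199a-3p, 784.5 to miR-214, 2.55 to let-7i, 14.02 to miR-140, 39.3 to miR-22-3p, 21.6 to miR-24-3p, 32.8 to miR-26a, 3.21 to miR-27b, 63.4 to miR-125b and 7.55 to miR-148a. Without CP_7 replicate 3 that in CP_7 was, in the same order, 0.350, 40.1, 5.702, 3.97, 408.3, 0.514, 9.14, 33.6, 13.7, 8.32, 1.83, 28.6 and 0.596. MiR-145 moved most, from 52.2 reads of miR-143 per read with that library. Without CP_14 replicate 3 that in CP_14 was, in the same order, 0.598, 484.1, 15.3, 24.6, 849.2, 5.46, 27.2, 70.3, 34.8, 61.8, 9.26, 161.6 and 7.599. Without CP_0 replicate 3 the ratio of miR-143 was lower without overlap at day 7 for 9 comparators and higher for 2 (miR-21-5p and miR-100), and higher at day 14 for 10. Without CP_7 replicate 3 it was lower at day 7 for 10 and higher for 1, higher from day 7 to day 14 for all 12, and between CC and CP_7 higher for 4 and lower for 7. The overlap of CP_14 with CP_7 for miR-21-5p, and that with CP_0 for miR-145, were those of CP_14 replicate 3. Without it the ratio of miR-143 was higher from day 7 to day 14 for all 12 comparators and from day 0 to day 14 for 10. Without CP_7 replicate 1 the numbers were those with it, and miR-143 had 58.1 reads per read of miR-145 in CP_7.

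The same count was made over all 103 other miRNAs with a mean of at least 100 RPM over the 12 libraries, in which 5 pairs of names share their reads within 1%. All 103 ratios share the reads of miR-143, which was chosen by such ratios, so the counts are a description and not separate results. From CP_0 to CP_7 miR-143 lost without overlap against 83 of the 103 and gained against 3, which were miR-101, miR-21-5p and miR-27a-5p. From CP_7 to CP_14 it gained against 98 and lost against 2, miR-451 and miR-486, the blood miRNAs described below. From CP_0 to CP_14 it gained against 64, lost against 9 and overlapped for 30. Between CC and CP_14 it lost against 97 and gained against 3, miR-1246, miR-148d and miR-184. Between CC and CP_0 it lost against 96 and gained against 2, miR-184 and miR-27a-3p, and between CC and CP_7 it gained against 45 and lost against 31. Without CP_0 replicate 3 miR-143 lost against 84 from CP_0 to CP_7 and gained against 73 from CP_0 to CP_14, and without CP_7 replicate 3 it lost against 93 from CP_0 to CP_7 and gained against 99 from CP_7 to CP_14. Without CP_14 replicate 3 it gained against 101 from CP_7 to CP_14 and against 77 from CP_0 to CP_14, and lost against all but 3 of the 103 between CC and CP_14. The miRNAs named in these counts outside the fixed lists were named after their values were seen.

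The miRNAs whose pattern was most like that of miR-143 were taken as those with the smallest SD, over the 12 libraries, of the log2 ratio to miR-143, among the same 103. They were miR-450a (SD 0.59), miR-22-3p and miR-3600 (both 0.63), miR-24-3p (0.67) and miR-192 (0.71). MiR-22-3p and miR-3600 had the same reads within 1% in every library, so they cannot be told apart here. The median SD over the 103 was 1.20 and the highest 3.71, and miR-145, at 1.28, held place 62. Even miR-450a did not follow miR-143 closely, since the reads of miR-143 per read of miR-450a ran from a geometric mean of 366 in CC to 1052 in CP_14. The TMM-normalized levels of miR-450a were 264.9 ± 3.96 (SD, n = 3) in CP_0, 94.0 ± 0.825 for CP_7, 235.4 ± 8.55 for CP_14 and 194.8 ± 15.1 for CC. On this scale miR-450a, like miR-143, was lowest for CP_7, but it was not higher for CP_14 than in CP_0. MiR-22-3p was on this scale also lowest in CP_7, at 1403 ± 153 against 3343 to 3899 for the means of the other groups, as was miR-24-3p at 3627 ± 477 against 6346 to 7305 and miR-192 at 173.7 ± 12.3 against 537.9 to 591.8. In RPM without TMM factors, CC was lowest and not CP_7 for miR-450a (117.8 against 180.4), miR-22-3p (2015 against 2680.06) and miR-24-3p (3833 against 6983), as for miR-143, while miR-192 was lowest in CP_7 (331.6 against 357.0). With a minimum mean of 50 RPM in place of 100, only 2 of these 5 names were again among the 5 most like miR-143. With 500 RPM 3 were, but that minimum itself removed miR-450a (mean 191.1 RPM) and miR-192 (437.3 RPM), so no more could return.

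Lists of miRNAs linked to the regulators of the miR-143 transcript were set beside it. Their counts depend on the scaling as those of all miRNAs do. With no normalization 22 of all miRNAs tested were higher and 123 lower from CP_0 to CP_7, 148 and 12 from CP_7 to CP_14, 55 and 38 from CP_0 to CP_14, and 172 and 37 between CC and CP_14. With library size only they were 152 and 20, 26 and 138, 76 and 33, and 40 and 163. Of 8 muscle miRNAs under serum response factor and its partners, 6 passed the filter on low reads, and from CP_0 to CP_7, where miR-143 was lower, 5 were higher and 0 lower, with a median 2.04 above that of all miRNAs tested, of which 35.8% were higher and 28% lower. Examples are miR-1 (log2 change 2.04, adjusted p = 8.8e-05 by limma) and miR-133a (2.20, adjusted p = 0.00018), both of striated muscle. Of the 5, miR-133b and miR-499 were below the cutoff of the filter in every CP_0 library and passed it by their reads in CP_7 alone, so the filter favoured a call of higher for them. From CP_7 to CP_14, where miR-143 was higher, 0 muscle miRNAs were higher and 4 lower (median -0.74 relative to all, 24.4% and 28.5% of all called), from CP_0 to CP_14 3 were higher and 0 lower (1.31, 24.8% and 21.2% of all), and between CC and CP_14 0 were higher and 4 lower (-0.59, 37.7% and 37% of all). With no normalization the muscle miRNAs called were 1 higher and 0 lower, 0 and 1, 3 and 0, and 3 and 1 in these comparisons, where in the last the muscle median (0.42) was still below that of all miRNAs (1.01). In the same way miR-499 passed by CP_7 alone among the 4 lower from CP_7 to CP_14, and miR-133b by CP_14 alone among the 3 higher from CP_0 to CP_14 and the 4 lower in CC. With a library left out the numbers called were 3 to 4 higher at day 7 (3 without CP_0 replicate 1 or CP_7 replicate 2), 1 to 4 lower from day 7 to day 14 (1 without CP_14 replicate 2, 2 without CP_7 replicate 2 or CP_14 replicate 1), 3 to 4 higher from CP_0 to CP_14 and 3 to 4 lower in CC, while 1 was higher from day 7 to day 14 without CP_7 replicate 1 and 1 was higher in CC without CP_14 replicate 3.

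The 10 TGF-beta-linked miRNAs, all tested, were 8 higher and 2 lower from CP_0 to CP_7 (median 1.02 relative to all, beside 35.8% and 28% of all), 1 and 6 from CP_7 to CP_14 (-0.71, beside 24.4% and 28.5%), 5 and 2 from CP_0 to CP_14 (0.35, beside 24.8% and 21.2%), and 3 and 5 between CC and CP_14 (-0.32, beside 37.7% and 37%). Of the 8, miR-29c passed the filter by CP_7 alone. With no normalization these counts were 2 and 2, 3 and 0, 3 and 0, and 7 and 1. Their numbers with a library left out were 6 to 8 and 1 to 2, 1 and 4 to 6, 3 to 5 and 0 to 2, and 3 to 4 and 4 to 5. The lower ones from CP_0 to CP_7 were 1 without any single CP_0 replicate. From CP_0 to CP_14 3 were higher without CP_14 replicate 2, and the lower ones were 0 without CP_0 replicate 2 and 1 without CP_0 replicate 1 or CP_14 replicate 1 or 2. The list holds miRNAs that TGF-beta is known to raise, such as miR-21, as well as the miR-29 family, which it is known to lower, so its median has no single known direction. The lists share members, since miR-145 is in the muscle, TGF-beta and comparator lists and miR-21-5p in the last 2. With TMM, miR-143 changed in the direction opposite to the median of both lists from CP_0 to CP_7 and from CP_7 to CP_14, and in the same direction from CP_0 to CP_14 and between CC and CP_14. The activity of serum response factor or of TGF-beta signalling, and any part of it in the values of miR-143, was not tested. The medians of the lists themselves, not taken relative to all, changed sign with no normalization along with the shift of all miRNAs, for muscle from -0.75 to 0.47 from CP_7 to CP_14 and from -0.50 to 0.42 between CC and CP_14, and for TGF-beta from 1.09 to -0.058 from CP_0 to CP_7, from -0.72 to 0.49 from CP_7 to CP_14 and from -0.23 to 0.69 between CC and CP_14 (0.11 there with library size without miR-21-5p). Their medians relative to all did not change sign.

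The 12 comparators, all tested, were 4 higher and 8 lower from CP_0 to CP_7 (median -0.79 relative to all, beside 35.8% and 28% of all), 6 and 4 from CP_7 to CP_14 (0.42, beside 24.4% and 28.5%), 2 and 4 from CP_0 to CP_14 (-0.09, beside 24.8% and 21.2%), and 6 and 3 between CC and CP_14 (0.25, beside 37.7% and 37%). With library size only the comparator counts were 5 and 3, 2 and 6, 2 and 4, and 3 and 6, and with no normalization 0 and 9, 10 and 0, 2 and 3, and 11 and 0, beside the counts of all miRNAs given above. From CP_0 to CP_14 they were 2 and 9 with upper-quartile factors (50 and 91 of all) and 2 and 7 with library size without miR-21-5p (49 and 79 of all). With a library left out 1 to 4 were higher and 8 lower from CP_0 to CP_7 (1 without CP_7 replicate 1 or 2, 2 without CP_0 replicate 1 or 3), 1 to 3 lower from CP_7 to CP_14 (1 without CP_7 replicate 1 or 2 or CP_14 replicate 1 or 2, and 2 without CP_7 replicate 3), 3 to 7 lower from CP_0 to CP_14 (7 without CP_14 replicate 3) and 2 to 3 lower in the last. With TMM the comparator median moved with miR-143 from CP_0 to CP_7 and from CP_7 to CP_14 and against it between CC and CP_14, relative to all miRNAs. Ratios of miR-143 to such miRNAs were part of its choice, so nothing is read from the comparator calls or their median. The comparator median itself, not relative to all, changed sign with library size only, from -0.72 to 0.35, 0.41 to -0.45 and 0.34 to -0.38 in these comparisons and from -0.08 to 0.078 from CP_0 to CP_14, along with the shift of all miRNAs.

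The 6 reference miRNAs, of the kind used to scale miRNA levels, were not flat themselves with TMM, with 1 higher and 4 lower (median -0.57 relative to all), 3 and 0 (0.31), 1 and 2 (-0.05), and 3 and 1 (0.15) in the same order, beside the same shares of all miRNAs, and 0 to 1 higher (0 without CP_7 replicate 1 or 2), 1 to 4 higher (1 without CP_14 replicate 2), 1 to 2 higher (2 without CP_0 replicate 3) and 3 to 4 higher with a library left out. With library size only their counts were 5 and 0, 0 and 6, 2 and 2, and 1 and 5, and their own medians, not relative to all, changed sign from -0.50 to 0.58, 0.30 to -0.56, -0.04 to 0.12 and 0.24 to -0.47 with the shift of all miRNAs. Scaled to them, miR-143 differed by -1.27, 2.01, 0.75 and -2.28 in the 4 comparisons.

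The labels were checked against markers. All 5 mesenchymal markers had reads in every library, and miR-143 was the most abundant of them in each. The other 4 (miR-145, miR-199a-3p, miR-199a-5p and miR-214) summed to 8092, 7014 and 6883 RPM in CP_0, 28526, 28966 and 32179 for CP_7, 13445, 13085 and 11884 for CP_14 and 6163, 6159.9 and 6718 for CC. This sum, highest in CP_7, was mostly miR-199a-3p there (21089.97, 21467 and 25374 RPM). With TMM miR-214 was lower in CP_7 than in CP_0 (-0.64, adjusted p = 0.0043 by limma), but with library size only its sign was turned (0.43, adjusted p = 0.061), which was not so for miR-143. MiR-199a-3p was higher in both (1.11, adjusted p = 2.3e-05, and 2.19, adjusted p = 2.7e-06). The 3 cartilage markers, led by miR-140, had reads in every library and summed to 9043 to 11415 RPM, nearly all of it miR-140. With TMM miR-140 differed by -1.03 between CP_7 and CP_0 (adjusted p = 2.6e-05 by limma), 0.87 between CP_14 and CP_7 (6.2e-05), -0.11 between CP_14 and CP_0 (0.13) and 0.78 between CC and CP_14 (1.2e-06). With library size only miR-140 was flat, at 0.047, 0.0021, 0.049 and 0.069 (adjusted p = 0.697, 0.98, 0.64 and 0.43 by limma), so these calls rest on the scaling. Between CP_7 and CP_0 miR-455-3p differed by 1.43 with TMM (adjusted p = 0.00043 by limma, and 133.5 to 140.5 RPM against 20.9 to 26.1), and miR-455-5p by 0.25, which was not called (adjusted p = 0.10, and 480.1 to 513.6 RPM against 185.1 to 219.9) but was with library size only (1.32, adjusted p = 2.5e-05). On the latter scaling miR-455-3p and miR-455-5p differed by -1.56 and -1.14 between CP_14 and CP_7 (adjusted p = 0.00012 and 3.8e-05 by limma). Between CC and CP_14 they differed by -0.51 and 0.52 (0.0084 and 0.00014), and between CP_14 and CP_0 by 0.92 and 0.18 (0.0020 and 0.18). The median of all miRNAs tested was then -0.84, -0.54 and 0.16 in these comparisons.

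Markers of other cell types moved with some of the groups. The 7 blood markers summed to 17.2, 14.4 and 4223 RPM in CP_0, 23.4, 162.8 and 59.3 for CP_7, 5199.96, 4549.6 and 3508 for CP_14 and 1468, 1468 and 1394 for CC, with miR-486 or miR-451 the most abundant. MiR-144 had 0 reads in 9 of the 12 libraries and miR-451 had 6039 to 6933 reads in CP_0 replicate 3 and in each library of CP_14 and CC, although these differ in depth. The 2 endothelial markers, led by miR-126-3p, summed to 63.6, 47.1 and 58.6 RPM in CP_0, 188.4, 322.7 and 3083 for CP_7, 82.0, 83.6 and 57.4 for CP_14 and 28.4, 35.6 and 38.5 for CC. CP_7 replicate 3, the highest in endothelial markers, was also the CP_7 library with the highest share of miR-143 and the highest ratio of miR-143 to miR-145. The 4 striated muscle markers, led by miR-1, summed to 576.1, 535.5 and 683.3 RPM in CP_0, 4939.9, 6633 and 4536 for CP_7, 1756, 1699 and 1685 for CP_14 and 718.7, 722.9 and 751.6 for CC. Of the 2 neuronal markers miR-124a had 0 reads in 8 of the 12 libraries, and their sum, nearly all miR-9-5p, was 1869.7 RPM in CP_7 replicate 1 and 51.6 to 172.1 in the others. Of 7 epithelial markers 6 are listed, and they summed to 3 to 159 reads in a library, with miR-200a the most abundant outside CP_7. In CP_7 the most abundant was miR-200c in replicates 2 and 3, while replicate 1 had 1 read each on miR-200b, miR-200c and miR-205. A count of 0 reads allows up to 3 reads, which is 5.56 RPM in the library with the fewest reads. The part of these markers, and of the low depth of CP_7, in the values of miR-143 was not tested.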

How the data were processed

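The library kit was NEBNext Multiplex Small RNA. The submitters' processing notes name CASAVA, bcl2fastq 1.8.4 and Bowtie, while the sources used here do not give the genome build, the miRNA database version or the counter. The values deposited by the authors are RPM under a header reading TPM, and 100% of them lie within 0.01 read of a whole number of reads, from which the reads were recovered. The main test was limma 3.58.1 (R 4.3.3) (trend option) on log2(TMM-normalized RPM + 1), on the 6 libraries of each pair of groups, after edgeR 4.0.16 filterByExpr (minimum count 10, total 15), two-sided, with Benjamini-Hochberg adjustment over all miRNAs tested and a threshold of 0.05. As alternatives on recovered reads, edgeR (quasi-likelihood) called 158, 135, 115 and 202 miRNAs and DESeq2 1.42.0 called 159, 133, 104 and 184, against 157, 130, 115 and 206 by limma. The procedure was tested on simulated data. Levels printed as TMM-normalized RPM use factors over all 12 libraries. Named miRNAs were miR-143, miR-145, the members of the fixed lists (comparators, muscle, TGF-beta-linked, reference, and markers of mesenchyme, cartilage, blood, endothelium, epithelium, striated muscle and neurons), those above miR-143 in any library and the 5 most like it. Further miRNAs in the counts over those with a mean of at least 100 RPM were named after their values were seen. The members and lists were chosen with earlier results of these data known. Other alternatives were the scaling, the pseudocount, the filter, all 12 libraries in one fit, a 2-fold minimum, the replicate number as a block and leaving out each library. The levels, ratios and counts without CP_0 replicate 3, CP_7 replicate 1 or 3, or CP_14 replicate 3 were added after seeing the data.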

Additional observations from a re-analysis of the deposited data

How the results depend on the processing

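In the 4 fitted comparisons the differences of miR-143 kept their direction under every alternative run, and their size moved mainly with the scaling. Between CC and CP_7, which was not fitted, the direction turned with the scaling. For CP_7 against CP_0 the difference was -2.05 under upper-quartile scaling, -0.62 by library size only, -2.85 with no normalization, -1.89 with TMM without miR-21-5p and -1.27 scaled to reference miRNAs. For CP_14 against CP_7 it was 1.41 with library size only, 3.49 with no normalization, 1.98 with library size without miR-21-5p and 2.01 scaled to reference miRNAs. For CP_14 against CP_0 it was 0.37 with upper-quartile factors and 0.40 with library size without miR-21-5p. For CC against CP_14 it was -2.52 with library size only, -0.88 with no normalization, -1.46 with library size without miR-21-5p and -2.28 scaled to reference miRNAs. With each library left out it ran from -1.91 to -1.63, 2.23 to 2.42, 0.53 to 0.70 and -1.92 to -1.71. The ranks were the same among cattle names only. Of the 5 most like miRNAs, 2 were again among the 5 with a minimum of 50 RPM. With 500 RPM 3 were, all that could be, since that minimum removed miR-450a and miR-192. MiR-145 turned its sign with no normalization (-0.47 for CP_7 against CP_0, 0.45 for CP_14 against CP_7), with library size only (0.14 for CP_14 against CP_0, -0.50 for CC against CP_14) and with edgeR (0.0063 for CP_14 against CP_0), and ran from -0.21 to 0.084 there with a library left out. The turned difference of -0.50 for CC against CP_14 was a call (adjusted p = 0.00097 by limma). With at least 2-fold added, 76, 48 and 98 miRNAs were called for CP_14 against CP_7, CP_14 against CP_0 and CC against CP_14. The cause of these moves was not tested. The levels, ratios and counts without CP_0 replicate 3, CP_7 replicate 1 or 3, or CP_14 replicate 3 are alternatives picked once the data had been seen. The replicate numbers showed no pairing of the libraries (correlation of deviations -0.293 to 0.126). With the replicate block 151, 100, 105 and 189 miRNAs were called, and the adjusted p of miR-145 for CP_14 against CP_7 was 0.086 (limma), which ends that call. The library with the fewest reads of miR-143 held 60465 of them.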
